A study of Mus musculus with 8 samples.

Results

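Intergenic long noncoding RNAs are transcripts that code for no protein and arise between annotated genes, without overlapping one on either strand. The probes described here are those that the array's annotation, in the authors' deposited table of noncoding probes, gives the type intergenic. They number 766 of 7633 deposited noncoding probes and of 37246 measured probes, each with a transcript ID of its own. The same annotation has 1119 probes overlapping a gene in antisense, 888 bidirectional, 3507 overlapping in sense, 242 UCR and 1111 others. RNA came from mouse embryonic fibroblasts, connective tissue cells grown from embryos, of Atm+/+ and Atm-/- littermates, in medium with 15% fetal calf serum. For each genotype 1 culture was left untreated (0 h), and others were harvested after 4, 8 and 24 h with neocarzinostatin (NCS), which mimics radiation and breaks both DNA strands. Atm encodes the kinase that reports such breaks to p53 and the cell cycle checkpoints, and the series asks how long noncoding RNAs are regulated when DNA is damaged.

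Long noncoding RNAs act in several known ways: some guide chromatin complexes to genes, some scaffold nuclear bodies, some bind microRNAs, and for many the act of transcription rather than the RNA affects a neighbouring gene. After DNA damage a few intergenic RNAs are direct targets of p53, among them the RNA next to Cdkn1a known as lincRNA-p21. Most intergenic transcripts are made in few copies and in few cell types, and most have no assigned role.

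The groups limit what can be compared. Each genotype and time point has 1 array. Slide 1 carried the 4 Atm+/+ arrays, slide 2 the 4 Atm-/- arrays, and on either slide positions 1 to 4 held 0, 4, 8 and 24 h in that order. Genotype and slide therefore cannot be told apart, nor can NCS, hours in culture and array position, since there was 0 untreated culture at a later hour. Embryo or line numbers are not in the labels. In tests with hour and genotype as factors, p-values measure how the difference between the genotypes varies from hour to hour. In tests within a genotype they measure the spread between arrays of different hours. Either spread may be technical. The Atm probe gave -2.07, -2.18, -1.95 and -2.43 in Atm+/+ cells in order of hours, and -3.19, -3.57, -3.67 and -3.15 in Atm-/- cells. Every Atm-/- reading was the lower one, but the probe stayed well above background, and which exons the deletion removes is not stated in the labels. The 4 Y-linked genes on the marker list were seen in Atm+/+ cells only, so sex also cannot be told apart from genotype; member positions were not used here, and which members lie on X or Y is not known from the files. The 12 fibroblast markers were all measured, 11 of them on all 8 arrays. All levels here are log2 intensities minus the array's 75th percentile (log2), and levels of different probes are not compared.

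None of the 766 members carries a familiar name. UCSC known genes supply 364 of the IDs (uc), a collection called NRED in the table supplies 354 and the Fantom set 48. Of 58 names of well-known noncoding RNAs, from Malat1 and Neat1 to Trp53cor1 (lincRNA-p21), 0 matched a member, and 0 member IDs matched a RefSeq transcript or symbol. The member IDs are database numbers (AK, uc, BC and others), so the 58 names and RefSeq transcript IDs could not match them. Whether these RNAs are among the members under such an ID was not tested. Members are therefore named by ID, and no role can be given to them. Clusters of neighbouring members could not be sought without positions.

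Intergenic probes were dim. A probe was taken as measured on an array when the scanner software marked it well above background, and probes measured on at least 2 arrays were kept for tests. Of the 766 members 177 were measured on 1 array only and were not tested, 223 on 2 to 7 arrays and 366 on all 8. The 589 kept members are 76.9% of the class, against 83% of antisense, 89% of bidirectional, 93.2% of sense-overlapping, 89.3% of other and 71.9% of UCR probes. Likewise 47.8% of intergenic probes were measured on all 8 arrays, more than the 45.9% of UCR probes and fewer than the 59.2% to 71.1% of the remaining classes. Because every deposited probe was measured on at least 1 array, the class holds no probe that was dim throughout.

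Detection ranged from 60.4% to 73.1% of the members over the 8 arrays. The Atm+/+ arrays measured 527 members at 0 h, 501 at 4 h, 508 at 8 h and 463 at 24 h. The Atm-/- arrays measured 560, 526, 513 and 533. At each hour the Atm-/- array measured more members, and the Atm+/+ 24 h array the fewest. That array also had 1545 spots marked as outliers, against 44 to 203 on the other 7, and 13 of the 24 member values that were left out for this reason. Among spots of every kind 57.35% to 59.83% were well above background on the Atm+/+ arrays and 60.16% to 61.43% on the Atm-/- arrays. Here too the Atm-/- array was ahead at each hour. Of the kept members 17 were measured in Atm+/+ cells only and 33 in Atm-/- cells only, and of those 2 and 9 on all 4 arrays of their genotype. The share of all probes measured in 1 genotype only was not counted. In bulk RNA, fewer cells that make a transcript and less of it per cell cannot be told apart.

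**Figure D1:**
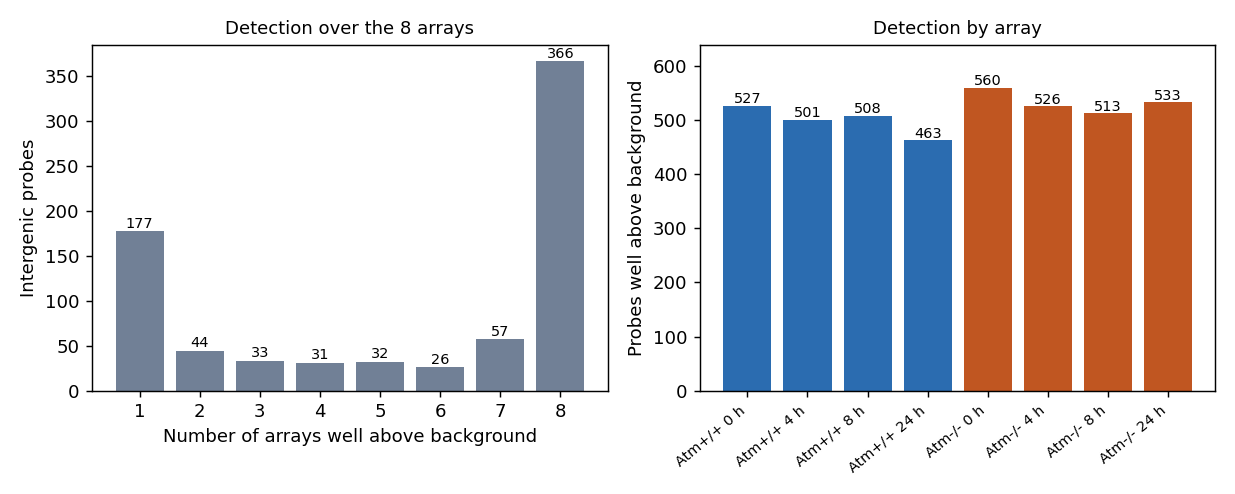
The left panel counts the 766 intergenic probes by the number of arrays, 1 to 8, on which they were well above background, and the right panel counts those above background on each array (blue Atm+/+, orange Atm-/-). The peaks are at 1 array (177 probes) and at all 8 (366), and the arrays range from 463 to 560 probes.

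Members varied more between arrays than probes in general did. The median range over the 8 arrays was 0.84 log2 for the 366 members measured on all of them, against 0.65 for the 18496 such probes of every kind. The range passed 1 log2 in 124 members, 33.9%, against 23.9% of all such probes, and stayed under 0.5 in 54. The residual SD, the spread left after genotype and hour are taken out, had a median of 0.256 over the kept members and 0.146 over all kept probes. Among members it was 0.206 for those measured on all 8 arrays and 0.361 for those measured on 2 to 7, so the members with dim readings had the wider spread.

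The range passed 2 log2 in 8 members measured on every array, which are named here after their values were seen. The widest was uc009eqh, with -5.55, -5.33, -4.84 and -4.54 in Atm+/+ cells and -2.81, -4.36, -2.16 and -4.97 in Atm-/- cells at 0, 4, 8 and 24 h. Its Atm-/- readings jumped from hour to hour, the 24 h one lay among the Atm+/+ readings, and neither genotype (adjusted p = 0.156) nor NCS (adjusted p = 0.919) passed with limma. AK149257 read -0.43, -0.56, -0.04 and 0.57 in Atm+/+ cells and -1.98, -0.76, -0.53 and -0.02 in Atm-/- cells. In both genotypes its highest reading was at 24 h, and it did not pass the NCS test (limma adjusted p = 0.278). The others were AK081614, uc008rsh, AK009126, AK014197, AK015451 and AK030791.

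The genotype comparison asks which transcripts differ with loss of Atm at every hour, and the share of intergenic RNAs that passed was close to that of all probes. Of 589 members tested with limma, hour by hour, 98 passed at an adjusted p of 0.05: 47 were higher and 51 lower in Atm-/- cells. That is 16.6%, beside 14.7% of all probes tested, and the other noncoding classes lay between 9.2% (UCR) and 13.9% (antisense). Among the members measured on all 8 arrays 53 of 366 passed, 24 higher and 29 lower. The share of all such probes that passed in the same test was not counted. With the test run on probes measured on all 8 arrays alone, 64 of 366 members passed, beside 3072 of 18496 probes of every kind. Counted without a test, the Atm-/- and Atm+/+ readings did not overlap in 106 of the 571 members with 8 values, 46 higher and 60 lower, or 18.6% beside 18% of all probes. The median difference was -0.09 over the members and 0.01 over all probes.

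Dimness and background correction bear on the directions. Of the lower members 9 were above background on no Atm-/- array, and of the higher ones 10 were above it on no Atm+/+ array. For these only a bound is given: dim readings are raised to the lowest signal well above background on their array. In the background-subtracted signal used here, the fold is at least the one that results. The limit is not a strict cap, since a reading marked as not above background can lie over it. On the Atm+/+ 8 h array uc007gua did so, at -5.67 beside a limit of -5.736. With a model-based background correction (normexp) 95 of 589 members passed, beside 3592 of 23286 probes of every kind. Of these members 18 were higher and 77 lower, so the higher share was 18.9% in place of 48%. It was 38% with outlier spots taken out ahead of scaling and 34.2% in the authors' own log2 values. Differences with normexp were smaller than the bound for some members, such as uc008pdh (0.37) and AK012915 (-1.32). For others, such as uc007guc (-0.88), they were larger. The folds given below as at least a value therefore do not hold under every background correction.

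Among the higher members uc009hfc was measured on every array and more than doubled. It read -4.67, -4.71, -4.81 and -4.68 in Atm+/+ cells and -3.55, -3.48, -3.63 and -3.65 in Atm-/- cells at 0, 4, 8 and 24 h. The groups are well apart and nearly flat over time, with a difference of 1.14 ± 0.07 (SE, 4 arrays against 4, limma adjusted p = 0.00238). The IDs uc009hfb and uc009hfd differ from it only in the last letter. uc009hfb read -5.43, -5.83, -5.57 and -5.28 against -4.54, -4.90, -4.90 and -4.45 and passed too (0.83, limma adjusted p = 0.00482), with 5 of 8 readings above background. uc009hfd was above background on 2 arrays, both Atm-/-, and passed (limma adjusted p = 0.00551) with no fold that could be stated. With normexp its difference was 0.09 (limma adjusted p = 0.513), so no direction is read from it. The files do not say whether the 3 share sequence or a locus.

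AK015549 was as steady. It read -3.56, -3.68, -3.56 and -3.69 in Atm+/+ cells and -2.51, -2.65, -2.57 and -2.72 in Atm-/- cells, and its difference was 1.01 ± 0.06 (limma adjusted p = 0.00245), so the gap between genotypes was far wider than the range within either. uc007pwy read -2.79, -2.90, -2.87 and -3.06 against -1.66, -1.78 and -1.86, the Atm-/- 24 h value being left out as an outlier. Its difference over the remaining arrays was 1.09 ± 0.09 (limma adjusted p = 0.00663).

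The errors of 2 other bright members were larger. AK154943 read 0.83, 0.56, 0.69 and 1.30 in Atm+/+ cells against 2.06, 2.03, 1.25 and 1.86 in Atm-/- cells. Here the groups overlapped, since the Atm+/+ reading at 24 h was above the Atm-/- reading at 8 h, and the difference was 0.96 ± 0.19 (limma adjusted p = 0.0327). uc007gjn read -2.69, -2.79, -2.37 and -2.57 against -1.45, -1.60, -1.68 and -1.98. Its groups did not overlap, and the difference was 0.93 ± 0.14 (limma adjusted p = 0.0168).

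The remaining higher members named by size were not above background on any Atm+/+ array. uc008pdh was measured on all 4 Atm-/- arrays, at -4.91, -4.64, -5.10 and -5.22, and was at least 1.74-fold higher (limma adjusted p = 0.0133). AK042736 was also measured on all 4, at -5.55, -5.48, -5.97 and -5.45, and was at least 1.11-fold higher (limma adjusted p = 0.00987). AK020028, measured on 3, was at least 1.12-fold higher (limma adjusted p = 0.00944). For AK008862, measured on 2, no fold can be given (limma adjusted p = 0.0435). With normexp AK042736, AK020028 and AK008862 did not pass (0.15, 0.24 and 0.24, limma adjusted p = 0.268, 0.14 and 0.134).

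Among the lower members AK012915 had the largest bound of those named. It read -4.49, -4.45, -4.41 and -5.10 in Atm+/+ cells and lay at -7.82 to -8.49, never above background, in Atm-/- cells. It was therefore at least 2.78-fold lower (limma adjusted p = 0.00122). AK016698 showed the same pattern, with -5.31, -4.88, -5.22 and -5.27 in Atm+/+ cells and no Atm-/- array above background, and was at least 1.88-fold lower (limma adjusted p = 0.0121). These 2 are the members measured on all 4 Atm+/+ arrays and on no Atm-/- array.

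AK078075 and uc007zkz were bright enough to be measured on all 8 arrays. AK078075 read -1.60, -1.72, -1.98 and -1.76 in Atm+/+ cells and -3.06, -3.09, -3.49 and -3.32 in Atm-/- cells, a difference of -1.48 ± 0.07 (limma adjusted p = 0.00166). uc007zkz read -1.29, -1.11, -1.03 and -0.98 against -2.60, -2.42, -2.45 and -2.69, a difference of -1.44 ± 0.10 (limma adjusted p = 0.00257). In both, the gap between genotypes was wider than the range within either.

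A pair of members beside uc007zkz may not be separate measurements. uc007zky, whose ID differs from it in the last letter, read -2.70, -2.50, -2.18 and -2.21 in Atm+/+ cells and -3.88, -3.89, -3.59 and -2.62 in Atm-/- cells. AK019912 read -2.66, -2.46, -2.08 and -2.06 against -3.78, -3.87, -3.61 and -2.55, never more than 0.15 from uc007zky. Both were lower in Atm-/- cells (-1.10 ± 0.19 and -1.14 ± 0.19), the gap being narrowest at 24 h. Of the 296 members with 8 values and a range over 1, the only other pair within 0.25 on every array was AK087708 and uc009sho, which did not pass by genotype.

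Most of the other lower members named by size were dim. uc007guc and uc007gua, another pair of IDs that differ in the last letter, were each measured on 2 Atm+/+ arrays and no Atm-/- array, and were at least 1.37-fold and 1.31-fold lower (limma adjusted p = 0.00382 and 0.0302). AK006559, measured on 3 Atm+/+ arrays, was at least 1.58-fold lower (limma adjusted p = 0.0383), and AK019668, measured on 2, allows no fold (limma adjusted p = 0.00839). AK035047 was measured on all 4 Atm+/+ arrays and 3 Atm-/- arrays, with a difference of -1.30 ± 0.20, or -1.23 with the dim reading raised to the limit of its array (limma adjusted p = 0.0179). uc007ino was measured on 4 and 1, with -1.30 ± 0.26, or -0.85 raised (limma adjusted p = 0.0351).

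**Figure D2:**
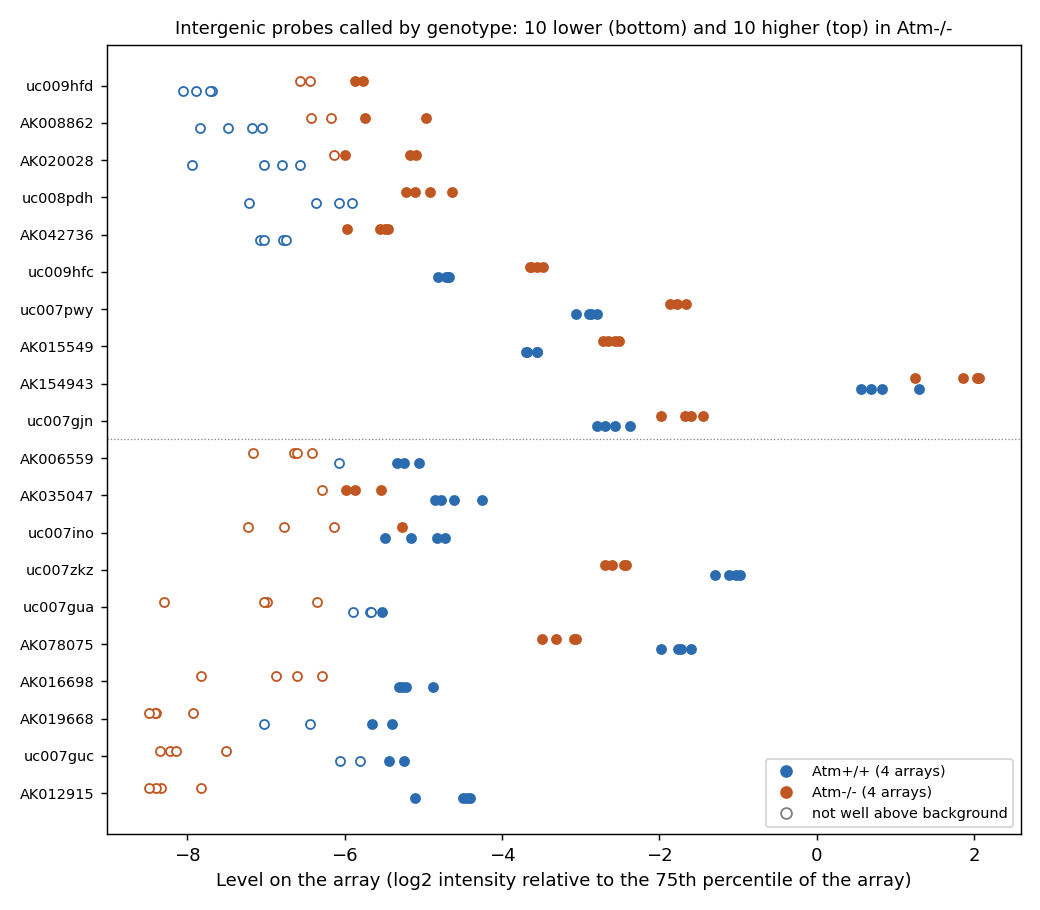
Levels of the 20 called members with the largest fitted genotype differences, in which readings below background count as measured, 10 lower (below the dotted line) and 10 higher in Atm-/-, in log2 units above or below the array's 75th percentile. Each point is 1 array (blue Atm+/+, orange Atm-/-) and open points were not well above background; AK078075, uc007zkz, uc009hfc and AK015549 are filled and separated on all 8 arrays.

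The number of genotype calls changed when an hour was left out, among members and among all probes. With all arrays 98 of 589 members passed, beside 3416 of 23286 probes of every kind. Without the 0, 4 or 8 h arrays 35, 36 or 37 members passed, beside 1123, 1085 or 1318 probes of every kind. Without the 24 h arrays 108 members passed, beside 4219 probes. Leaving out 1 array of an hour leaves no pair there, so either array gives the same count. Of the 20 members named above, 9 passed in each of these cases: uc009hfd, AK020028, uc009hfc, AK015549, AK012915, uc007guc, AK019668, AK078075 and uc007zkz. The other 11 lost the call in at least 1 case, with an adjusted p of up to 0.141 for AK006559 without a 4 h array, and no value changed sign. Among those that kept it, uc009hfd, AK020028, AK012915, uc007guc and AK019668 were above background on no array of the other genotype. Their calls therefore rest on readings below background, and uc009hfd and AK020028 did not pass with normexp. Under every setting and with every array left out, 9 members passed: uc009hfc, AK015549, AK078075 and uc007zkz from above, uc009hwi, AK031433, AK157193 and AK082258, which were lower, and uc007pbc, which was higher.

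These 5 further members had moderate, even differences. uc009hwi read -3.14, -3.42, -3.62 and -3.33 in Atm+/+ cells and -4.50, -4.63, -4.90 and -4.57 in Atm-/- cells (-1.27 ± 0.07, limma adjusted p = 0.00202). AK031433, among the brighter members, read 0.31, 0.16, 0.08 and 0.55 against -0.37, -0.77, -0.89 and -0.62 (-0.94, limma adjusted p = 0.0067). In neither did the genotypes overlap. AK157193 lay between -2.72 and -3.34 in Atm+/+ cells and between -3.69 and -4.14 in Atm-/- cells (-0.88, limma adjusted p = 0.00513). AK082258 lay between -4.27 and -4.74 against -5.02 to -5.42 (-0.76, limma adjusted p = 0.0067). uc007pbc read -2.36, -2.22, -1.98 and -2.22 against -1.61, -1.29, -1.33 and -1.39 (0.79, limma adjusted p = 0.00557), every Atm-/- array being above every Atm+/+ array.

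Across the 571 members with 8 values, the genotype difference at one hour correlated with that at another at a Pearson r of 0.31 to 0.54, lowest between 0 and 24 h and highest between 4 and 8 h. Over the 366 measured on all arrays it was 0.27 to 0.63. The points share slides, probes and signal level, and these values are descriptions. The median member difference was 0.01 at 0 h, -0.05 at 4 h, -0.14 at 8 h and -0.15 at 24 h.

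Markers of other cell types moved with genotype. Of 10 tested blood and macrophage genes 10 were lower in Atm-/- cells, among them the lysozyme Lyz2 (-1.33 ± 0.09, limma adjusted p = 0.00246) and the growth factor receptor Csf1r (-1.20 ± 0.11, limma adjusted p = 0.00481). Their summed linear level was 43.3 to 69 in Atm+/+ and 21.9 to 29.5 in Atm-/- cells, in units of the array's 75th percentile, and Ptprc, the leukocyte antigen CD45, was above background on 1 array. Epithelial markers were higher for 6 of 8 genes (summed 2.07 to 3.53 against 3.63 to 6.98), endothelial ones for 3 of 6 (1.16 to 1.94 against 2.55 to 5.53), and 4 of 12 fibroblast genes were lower (862 to 942 against 709 to 816). The part of these shifts in the members' genotype differences was not tested.

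After NCS a single intergenic RNA passed, AK030791, a comparison of the 2 untreated with the 6 treated arrays that asks which transcripts respond in either genotype. In Atm+/+ cells it read -3.25 at 0 h, -0.67 at 4 h, -0.80 at 8 h and -1.84 at 24 h. In Atm-/- cells it read -3.50, -1.56, -1.14 and -2.49. All 6 treated arrays lay above both untreated ones, with the peak at 4 h in Atm+/+ and at 8 h in Atm-/- cells, and at every hour the Atm-/- reading was the lower one. It rose by 1.96 ± 0.15, or 3.88-fold (limma adjusted p = 0.0256), and was the 1 of 589 members that passed, 0.17%, beside 0.206% of all probes.

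Hour by hour AK030791 was again the member that passed at 4 and 8 h. It rose by 2.26 ± 0.18 at 4 h (4.78-fold, limma adjusted p = 0.0467), 1 of 589 members beside 0.107% of all probes. It rose by 2.41 ± 0.18 at 8 h (5.30-fold, limma adjusted p = 0.023), 1 of 589 beside 0.258%. At 24 h it was still higher, by 1.20 ± 0.18 (2.31-fold, limma adjusted p = 0.0487). These comparisons share the untreated arrays.

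The size of this response was steady and its call was not. With any 1 array left out the rise over all hours stayed between 1.77 and 2.14, but the limma adjusted p lay between 0.0546 and 0.235, and the calls at 4 and 24 h were lost in the same way. The call at 8 h held only without a 24 h array (adjusted p = 0.0494 and 0.0493). The difference of response between genotypes was -0.38 ± 0.28 (limma adjusted p = 1), and the genotype difference over all hours -0.53 ± 0.13 (limma adjusted p = 0.0539), so neither passed.

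Some cytokine genes also passed after NCS. Of the 20 genes on the NF-kB and cytokine list, NF-kB being a transcription factor of inflammation, 10 rose over all hours, 7 passed at 4 h, 10 at 8 h and 5 at 24 h, with list medians of 2.37, 3.02 and 1.23 at the 3 hours and 0 lower at any of them. The median over all probes was -0.02 at 4 h, -0.03 at 8 h and -0.07 at 24 h. Il6, Tnfaip3, Icam1, Nfkbiz and Ptgs2 were among the 10 that did not pass over all hours or at 8 h. Tnf, which encodes an inflammatory cytokine, read -2.58, 2.41, 0.93 and -1.10 in Atm+/+ and -3.38, 1.15, 0.95 and -1.97 in Atm-/- cells, rising by 3.38 ± 0.25 (limma adjusted p = 0.025). Of 23 p53 targets 0 passed after NCS with limma (median 0.14 over all hours), Cdkn1a and Mdm2 reading 0.16 ± 0.24 and 0.36 ± 0.19 (limma adjusted p = 0.796 and 0.461). These values join both genotypes and all hours. Taken by genotype, the list median was 0.21 in Atm+/+ and 0.09 in Atm-/- cells. Mdm2 read 4.32, 5.13, 4.74 and 4.51 in Atm+/+ and 4.18, 4.25, 4.51 and 4.55 in Atm-/- cells. Cdkn1a read 2.39, 2.79, 2.50 and 2.07 against 2.72, 2.88, 2.74 and 3.31. The lists and AK030791 were chosen with earlier results of these data known.

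At 24 h 8 of 587 members passed, 1.36% beside 2.55% of all probes: 2 were higher and 6 lower than at 0 h. AK053349 read 0.16, 0.15, -0.13 and -0.81 in Atm+/+ cells and -0.08, -0.09, -0.18 and -1.16 in Atm-/- cells. In both genotypes it changed little to 8 h and was lowest at 24 h, by -1.03 ± 0.11 (limma adjusted p = 0.0441). AK078781 read -1.30, -1.41, -1.55 and -2.24 against -1.51, -1.52, -1.61 and -2.34, a fall by 0.89 ± 0.10 (limma adjusted p = 0.0441). Here too the step came between 8 and 24 h.

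uc008toe and uc008rjv combined a fall at 24 h with a genotype difference. uc008toe read -1.99, -1.89, -1.83 and -2.75 in Atm+/+ cells and -1.54, -1.49, -1.51 and -2.20 in Atm-/- cells. It was lower at 24 h (-0.71 ± 0.10, limma adjusted p = 0.0484) and higher in Atm-/- cells (0.43 ± 0.07, limma adjusted p = 0.0226). uc008rjv read -5.35, -5.60, -5.42 and -6.34 against -4.61, -4.63, -4.77 and -5.37. The Atm+/+ reading at 24 h was not above background, and the fall was -0.88 ± 0.12, or -0.50 with that reading raised (limma adjusted p = 0.0477), while the member was higher in Atm-/- cells by 0.83 ± 0.09 (limma adjusted p = 0.00667).

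The last members called at 24 h were dim or changed less. AK051554 was above background on both untreated arrays (-5.43 and -5.61) and on neither 24 h array, so it was at least 1.28-fold lower (limma adjusted p = 0.0486). AK005156 was above background on no array at 0 or 4 h and read -5.50 and -5.59 at 8 h and -4.66 and -4.90 at 24 h, at least 2.29-fold higher than at 0 h (limma adjusted p = 0.0384). uc007qgi, outside the 5 lower members named by size, fell by 0.69 (limma adjusted p = 0.0498).

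**Figure D3:**
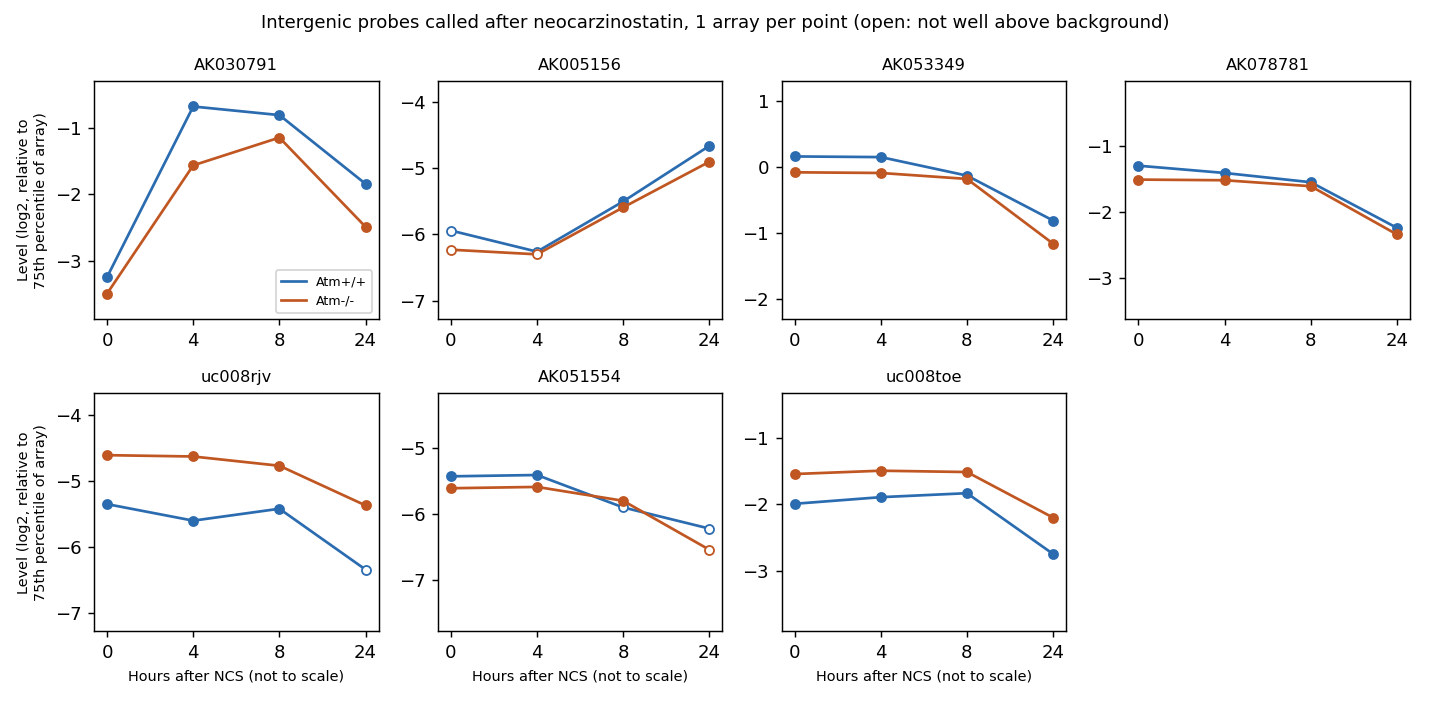
Levels of AK030791 and of the 6 other members named at 24 h, against hours after NCS (the axis is not to scale), with 1 array per point, blue for Atm+/+ and orange for Atm-/-, and every panel spanning 3.6 log2. Open points were not well above background. AK030791 peaks at 4 or 8 h, and the others are at their highest or lowest at 24 h.

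The 24 h calls were fragile, among members and among all probes. With limma 0 members passed when any 1 of the 8 arrays was left out, and 0 when outlier spots were removed before scaling, which moved the median over all probes from -0.07 to 0.12. Scaling on the probes measured on all arrays, or normexp, gave 6 calls, 3 of them higher (50% in place of 25%). Beside these, 472 and 693 of 23158 probes of every kind were called. Of the same 23158 probes 0 were called without a 4 or 8 h array, and 33 with outlier spots removed before scaling. The test on the 366 members measured on all 8 arrays gave 15 calls, 4 higher and 11 lower, beside 1146 of 18496 such probes of every kind. Markers of other cell types passed at 24 h as well: 2 of 10 of blood and macrophages were higher, 1 of 8 of epithelium lower (Krt8, a keratin, -0.94 ± 0.14, limma adjusted p = 0.0484), and of 6 of endothelium 1 was higher (Pecam1, 0.97 ± 0.11) and 1 lower (Kdr, -1.27 ± 0.12). Their part in these values was not tested.

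Within one genotype 0 intergenic members passed after NCS. In Atm+/+ cells 0.0086% of all probes passed. An unadjusted limma p under 0.05 was found there for 28 of 589 members, 4.75% beside 2.99% of all probes. In Atm-/- cells 0.0259% of all probes passed, and 41 of 588 members had such an unadjusted p (6.97% beside 2.82% of all probes). For the difference of response between genotypes 0% of all probes passed. Here 40 of 588 members had an unadjusted limma p under 0.05 (6.8% beside 2.47% of all probes). Each test rests on 1 untreated array per genotype, which is assumed to vary like the treated ones.

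The member with the smallest p in Atm+/+ cells was AK009242, with -3.97 at 0 h and -3.12, -3.09 and -2.86 after NCS. Its treated readings were all above the untreated one, a difference of 0.94 ± 0.18 that did not pass (limma adjusted p = 0.636). In Atm-/- cells it read -2.99, -2.79, -2.84 and -2.85, a response of 0.17. Of the other 4 by smallest p, uc008ybu was above background on the 3 treated arrays only, at least 1.68-fold above 0 h (limma adjusted p = 1), and AK006165 allowed no fold. AK032656 gave -1.73 ± 0.40 (raised -1.47, limma adjusted p = 0.914) and AK016769 -1.02 ± 0.28 (raised -0.98, limma adjusted p = 1).

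In Atm-/- cells the smallest p belonged to members that were dim on the untreated array. uc009msx read -4.23, -4.23, -4.05 and -4.55 in Atm+/+ cells and -5.32, -4.73 and -4.67 at 4, 8 and 24 h in Atm-/- cells, but -8.31, below background, at 0 h in Atm-/- cells. That 1 reading sets its response, at least 2.24-fold (limma adjusted p = 0.0526, not passed). AK089647 read -4.80, -5.01, -4.96 and -5.11 in Atm+/+ cells and -4.94, -5.29 and -4.88 after NCS in Atm-/- cells, with -6.59, below background, at 0 h (at least 2.05-fold, limma adjusted p = 0.174). AK017011 had the same form (at least 1.17-fold, limma adjusted p = 0.108).

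uc007mmw was measured on every array, at -4.06, -4.25, -4.13 and -3.82 in Atm+/+ cells and -5.33, -4.11, -4.21 and -3.96 in Atm-/- cells. Only the untreated Atm-/- reading stands apart, and neither the response there (1.24 ± 0.22, limma adjusted p = 0.399) nor its difference from Atm+/+ (1.25 ± 0.22, limma adjusted p = 1) passed. AK039094 read -3.04, -3.66, -3.62 and -3.32 against -4.14, -3.41, -3.31 and -3.32, opposite in direction between the genotypes, with a difference of response of 1.28 ± 0.22 (limma adjusted p = 1). uc007hdz went the other way, above background at 0 h in both genotypes (-5.71 and -4.86) and on no treated array, at least 2.34-fold lower in Atm-/- cells (limma adjusted p = 0.208).

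Over all members the response in Atm-/- cells had a median of -0.16, beside -0.03 for all probes, and in Atm+/+ cells -0.05 beside -0.05. In Atm-/- cells the other noncoding classes had medians from -0.07 to -0.16, the latter for UCR probes. All Atm-/- responses share the 1 untreated Atm-/- array, which also measured the most members. Across members the responses in the 2 genotypes correlated at a Pearson r of 0.25 (571 members) and 0.36 (366 measured on all arrays), and across all probes at 0.42 and 0.54 with the same filters. The points share probes, array positions and signal level.

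**Figure D4:**
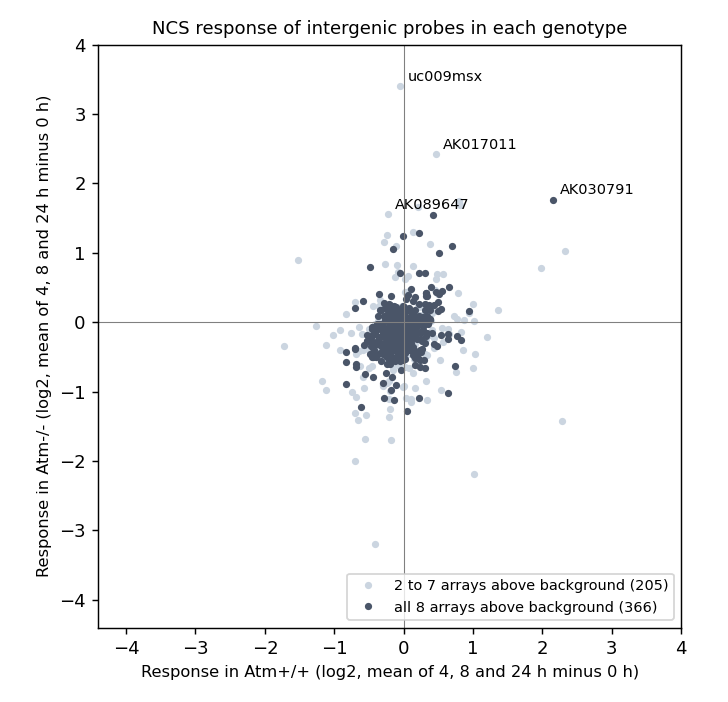
Response to NCS (mean of 4, 8 and 24 h minus 0 h, log2) of 571 intergenic probes in Atm+/+ cells on the x axis and in Atm-/- cells on the y axis, dark where all 8 arrays were above background (366) and pale where 2 to 7 were. AK030791 is high on both axes (2.14 and 1.77), whereas uc009msx (-0.05 and 3.40) is high on the y axis alone, against an untreated Atm-/- reading below background.

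Single arrays were also compared with the untreated array of their genotype, counting members above background on both and at least 2-fold apart, without a test. In Atm+/+ cells 5 of 461 members passed 2-fold at 4 h (1.08%, beside 1.03% of all probes), 11 of 455 at 8 h (2.42% beside 2.32%) and 9 of 424 at 24 h (2.12% beside 4.03%). In Atm-/- cells it was 14 of 484 at 4 h (2.89% beside 1.1%), 15 of 465 at 8 h (3.23% beside 1.6%) and 38 of 467 at 24 h (8.14% beside 4.49%). The members' share was above that of all probes at each hour in Atm-/- cells, close to it at 4 and 8 h in Atm+/+ cells and below it at 24 h there. Of the 38 at 24 h, 14 were up and 24 down.

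**Figure D5:**
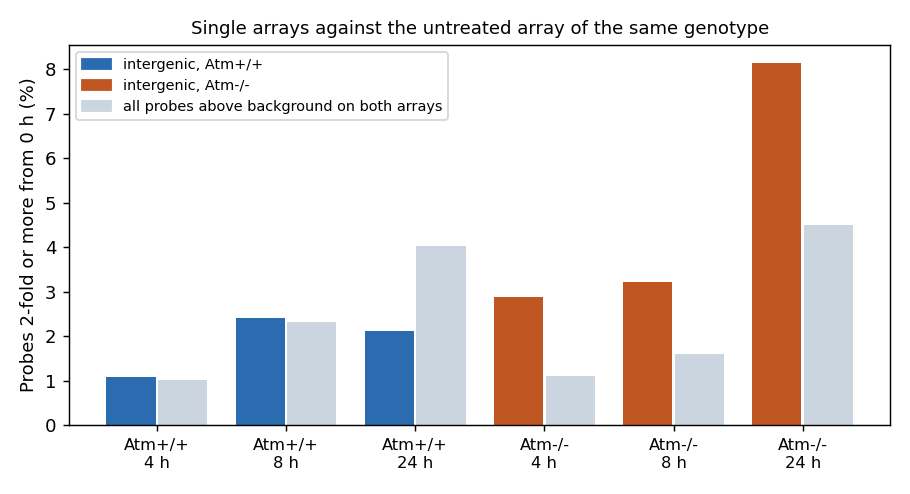
Percentage of probes at least 2-fold from the untreated array of the same genotype, for intergenic probes (blue Atm+/+, orange Atm-/-) and for all probes above background on both arrays (grey). The bar for intergenic probes in Atm-/- cells at 24 h is the tallest, at 8.14%, beside 4.49% for all probes.

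Shifts of at least 2-fold in both genotypes at the same hour were also sought. The share of all probes with such a shift was not counted. Of the members measured on all 4 arrays concerned (418, 402 and 389 at 4, 8 and 24 h), AK030791 was up in both genotypes at each hour. uc007gwq and uc007ttf were down in both at 8 h. uc007gwq read -1.37, -1.40, -2.61 and -0.64 in Atm+/+ cells and -1.34, -1.86, -2.47 and -2.60 in Atm-/- cells. Its 24 h reading was above the 0 h one in Atm+/+ cells and below it in Atm-/- cells, each on 1 array. The Atm+/+ 24 h array was the one with the most outlier spots. uc007ttf read -4.36, -5.55, -5.42 and -4.60 against -4.60, -5.06, -5.91 and -5.49. Neither passed at 8 h with limma (adjusted p = 0.472 and 0.302).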

How the data were processed

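Total RNA was depleted of ribosomal RNA, amplified with random primers along the transcript and labelled with Cy3 for one-colour Agilent arrays, per the labels. The spots were quantified with Feature Extraction 10.5.1.1, per the file headers, which gave a processed signal, an intensity with background subtracted and no normalization between arrays. The authors also deposited a table of noncoding probes with log2 values. Each of its columns equals log2 of the processed intensity minus a constant of 7.21 to 7.47. A deposited value table repeats the processed intensity itself, without the log2. The transcript types come from the deposited table.

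Control spots were left out, spots of a probe were averaged as log2, and the 75th percentile of each array was subtracted. A value was left out where every spot of the probe was an outlier. Probes well above background on at least 2 arrays were kept. limma 3.58.1 in R 4.3.3 (lmFit, eBayes, two-sided, Benjamini-Hochberg over all kept probes, threshold 0.05) was run with hour and genotype as factors on all 8 arrays, or with 4 groups of genotype by treatment for the responses within a genotype. The script was tested on simulated data. Members were named as the 10 higher and 10 lower called probes with the largest log2 difference by genotype, and over all hours after NCS, the 5 and 5 for other comparisons, or the 5 with the smallest p where none was called. A dim group was given as a bound or raised as described. The members and gene lists were chosen with earlier results of these data known. Alternatives were other scalings, normexp (offset 50), other filters, the authors' log2 values and leaving out each array. The precision is limited by the number of arrays.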

Additional observations from a re-analysis of the deposited data

Results flagged for a closer look

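Among the members named in the report and with 8 values, 3 had all 3 treated readings of one genotype above its untreated reading and all 3 of the other genotype below. The difference of response did not pass with limma for any of them (adjusted p = 1 for each). AK039094, measured on all 8 arrays, had a response of -0.49 in Atm+/+ and 0.79 in Atm-/- cells, a difference of 1.28. For the other 2 the fitted values rest on readings below background and give no measured size. AK089647 had -0.23 and 1.55, a fitted difference of 1.78, against an untreated Atm-/- reading that was not above background. Its response there is given only as a bound, at least 2.05-fold in the background-subtracted signal. AK006559 had 0.86 and -0.40, a fitted difference of -1.26, but was above background on no Atm-/- array and not on the untreated Atm+/+ array, so no direction can be read in Atm-/- cells.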

How the results depend on the processing

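Of 627 values of the 45 named results under alternatives, 442 kept direction and side of the threshold, 176 lost the call, 8 gained one and 1 reversed: AK016769 within Atm+/+ cells, 0.06 with normexp in place of -1.02. The genotype comparison called 64 of 366 members with the filter on all 8 arrays, beside 3072 of 18496 probes of every kind. Without a filter it was 58 of 766 members beside 2130 of 37238 probes. In the authors' log2 values it was 38 of 766 members beside 346 of the 7633 noncoding probes. With 1 array left out it was 35 to 108 of 589 members beside 1085 to 4219 probes of every kind. Of the 98 main genotype calls, 67 were shared with normexp. For NCS over all hours, 0 members were called without a filter, in the authors' values and with any 1 array left out. At 4 h 0 were called in the same cases and with the percentile over measured probes, quantile normalization or outliers removed first. At 8 h 0 were called without a filter or in the authors' values, and 0 to 2 with 1 array left out. Of all probes without a filter, 22 of 37242 were called over all hours, 10 of 37242 at 4 h and 24 of 37233 at 8 h. In the authors' values it was 0, 0 and 4 of the 7633 noncoding probes. At 24 h 15 of 366 members were called with the filter on all 8 arrays, beside 1146 of 18496 probes of every kind. There were 0 members called with no filter, outliers removed first or the authors' values. Beside these, 0 of 37110, 33 of 23158 and 1 of 7633 probes were called. The members' calls were lost with any 1 array left out. Within Atm+/+ cells 8 of 766 members were called without a filter, beside 105 of 37211 probes of every kind. In the authors' values 8 of 766 were called there, beside 40 of the 7633 noncoding probes. Within Atm-/- cells 23 of 764 members were called without a filter, beside 259 of 37133 probes. It was 1 of 588 with outliers removed first, beside 4 of 23188 probes. In the authors' values it was 24 of 766, beside 81 of the 7633 noncoding probes. The cause was not tested. The labels give no replicate numbers to pair by, and the genotype test pairs the arrays by hour. Without the untreated array of a genotype its response could not be fitted. The 177 members above background on 1 array were too dim to test, and the 223 measured on 2 to 7 arrays had the wider spread.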
